A study of Mus musculus with 4 samples.

Results

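The 9 core myelin genes of oligodendrocytes described here were Mbp, Mog, Mag, Mobp, Cnp, Mal, Cldn11, Fa2h and Ugt8a. They were taken by gene symbol from the platform annotation of the arrays, which named 19505 genes, and each had 1 probe set. Of the members, 7 encode structural or membrane proteins of the sheath and 2, Fa2h and Ugt8a, encode enzymes of myelin lipid synthesis. Transcript levels were measured by whole-transcript Affymetrix arrays in cerebellum from C57BL/6N males, 10 weeks of age. The exposed group (n = 2, replicates 6 and 7) was given clothianidin (CLO), a neonicotinoid insecticide, by mouth at 50 mg/kg/day on the 4 days of a rotarod test of motor coordination. The control group (n = 2, replicates 7 and 9) was given vehicle over the same days, so both groups had run on the rotarod, and the tissue was taken straight after it. No genetic modification was given for either group. The labels do not say whether a sample was 1 mouse or a pool, and p-values measure only how far these samples spread, which could be technical in part. Replicate numbers are names and carry no order.

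Myelin is the stacked membrane that oligodendrocytes wrap around axons to speed conduction. In the cerebellum it covers the Purkinje cell axons that leave the cortex and the mossy and climbing fibres that enter it. Its cytoplasmic faces are zipped together by small basic proteins, its edges are held by adhesion and tight junction proteins, and its lipids are rich in cholesterol and galactosylceramide. Ugt8a encodes the ceramide galactosyltransferase that makes galactosylceramide, and Fa2h the hydroxylase that supplies its hydroxylated fatty acids.

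The values are summaries of each probe set, taken to be on the log2 scale, so a difference of 1 unit is a doubling. All 9 members lay between 9.33 and 17.48 on every array, above the 95th percentile of 1091 olfactory receptor genes (5.32 to 5.86 across arrays), which serve here as a mark of dim signal. The brightest listed Purkinje markers were Car8 at 18.19 to 18.45 and Pcp2 at 16.10 to 17.18. The brightest listed granule cell markers were Zic1 at 17.16 to 18.35 and Gabra6 at 17.05 to 17.41. They were picked for their signal and no other tissue was measured, so they are no test of cerebellar identity. Probe affinity differs, so a higher signal from 1 probe set than from another does not show more RNA. Signal is used below only to say which genes of a list were brightest, to drop dim probe sets and to total a list on each array. The median over all probe sets was 6.49 to 6.54 on the 4 arrays. In whole tissue, fewer oligodendrocytes and less myelin RNA per oligodendrocyte cannot be told apart.

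Every member had a lower mean with clothianidin than with vehicle, 9 of 9, where 50.5% of all named genes were lower. The differences ran from -0.73 for Cnp to -0.005 for Mbp, with a median of -0.19 and a mean of -0.34, against a median of -0.005 over all named genes. The members' summed level, as log2 of the summed linear values, was 17.89 and 17.65 with vehicle and 17.83 and 17.46 with clothianidin. So the totals of the groups overlapped, and Mbp, the brightest member, weighs most in them. No member passed limma after Benjamini-Hochberg adjustment over 22206 probe sets (adjusted p = 0.997 for each). No probe set of the table passed it either, which is 0% called, while 940 (4.23%) had an unadjusted limma p under 0.05. A linear model without moderation called 8. That model has 2 residual degrees of freedom on values of 2 decimals, so nearly equal values within groups can give a call. Among the members 1, Cnp, had an unadjusted p under 0.05 on the lower side, where 1.93% of probe sets did. The groups did not overlap for 3 members, Cnp, Mal and Fa2h, all lower, and the same held for 15.7% of named genes. An exact permutation test of 2 arrays against 2 cannot give a two-sided p under 0.333, so single genes were not tested that way.

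**Figure D1:**
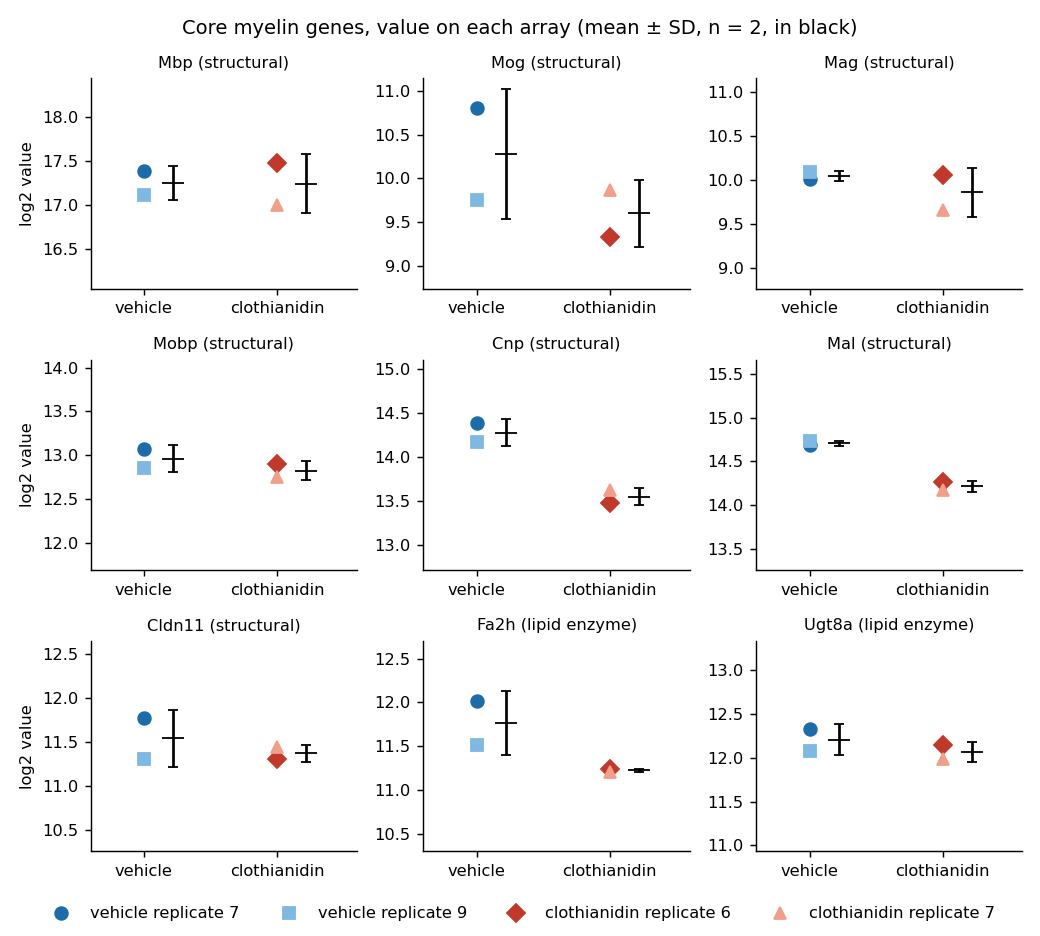
Log2 value of each core myelin gene on each of the 4 arrays, with the mean and SD of each group (n = 2) in black; every panel spans the same range on the log2 axis. Cnp, Mal and Fa2h have both clothianidin arrays under both vehicle arrays, while Mog, Cldn11, Mobp and Ugt8a have vehicle replicate 7 on top and vehicle replicate 9 between the clothianidin arrays.

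Cnp encodes a phosphodiesterase that lines the cytoplasmic channels of the sheath and keeps them open. It was at 14.39 and 14.17 on vehicle replicates 7 and 9, and at 13.48 and 13.62 on clothianidin replicates 6 and 7. Both clothianidin arrays lay under both vehicle arrays, with a gap of 0.55 between the nearest values. The means were 14.28 ± 0.16 for vehicle and 13.55 ± 0.10 for clothianidin (SD, n = 2 each), which differ by -0.73 (standard error 0.27), or 1.66-fold lower. Its 95% interval in limma was -1.36 to -0.10, not adjusted for the number of genes. Cnp was the member that was both at least 1.5-fold lower and without overlap, a combination found in 3.53% of named genes.

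Mal encodes a proteolipid of ordered membrane domains that sorts proteins to myelin. It had vehicle values of 14.69 and 14.73 and clothianidin values of 14.26 and 14.17. The 2 values of each group lay close together and the groups were 0.43 apart at their nearest. The log2 difference was -0.50 (standard error 0.27, 95% interval -1.11 to 0.12), or 1.41-fold lower. Its group SDs were 0.03 with vehicle and 0.06 with clothianidin (n = 2 each), and the limma error is larger because it borrows spread from all probe sets.

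The basic proteins of compact myelin showed little difference. Mbp, which encodes the protein that joins the cytoplasmic faces of the membrane, had vehicle values of 17.38 and 17.11 and clothianidin values of 17.48 and 17.00. Its highest and its lowest value were both on clothianidin arrays, and its log2 difference was -0.005 (95% interval -0.69 to 0.68), a direction that turned to 0.02 when arrays were centred on their medians. Mobp, which encodes another small basic protein of myelin, had vehicle values of 13.07 and 12.85 and clothianidin values of 12.90 and 12.75. Vehicle replicate 9 lay between the clothianidin arrays, and the log2 difference was -0.14 (95% interval -0.77 to 0.50).

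The adhesion and surface proteins differed among themselves. Mog encodes an immunoglobulin-like protein of the outermost lamella. It had vehicle values of 10.80 and 9.75 and clothianidin values of 9.33 and 9.87, so that vehicle replicate 7 stood 1.05 above vehicle replicate 9. The groups overlapped, and the log2 difference of -0.68 (95% interval -1.59 to 0.24) had the widest standard error of the members, 0.40. Mag encodes a sialic acid-binding lectin of the innermost membrane that faces the axon. It had vehicle values of 10.01 and 10.09 and clothianidin values of 10.06 and 9.66, where clothianidin replicate 7 was low and the other 3 arrays lay close together. The log2 difference of Mag was -0.19 (95% interval -0.84 to 0.46). Cldn11 encodes the claudin that forms the tight junction strands of central myelin. It had vehicle values of 11.77 and 11.31 and clothianidin values of 11.30 and 11.44, a log2 difference of -0.17 (95% interval -0.84 to 0.50), and vehicle replicate 7 stood above the other arrays.

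The lipid enzymes differed from each other in size. Fa2h had vehicle values of 12.02 and 11.51 and clothianidin values of 11.24 and 11.21, and the groups were 0.27 apart at their nearest values. Its log2 difference was -0.54 (standard error 0.29, 95% interval -1.22 to 0.14), or 1.45-fold lower. Ugt8a had vehicle values of 12.33 and 12.08 and clothianidin values of 12.14 and 11.98. Vehicle replicate 9 of Ugt8a lay between the clothianidin arrays, and the log2 difference was -0.15 (95% interval -0.78 to 0.49).

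Structural proteins and lipid enzymes had nearly the same average difference. The mean log2 difference was -0.34 over the 7 structural genes and -0.34 over the 2 enzymes. The medians were -0.19 and -0.34, because the structural class held many small differences beside Cnp, Mog and Mal. By their means, both classes rested on vehicle replicate 7 to a similar degree. Dropping that array moved the structural mean to -0.19 and the enzyme mean to -0.15. Dropping vehicle replicate 9 in its place moved them to -0.49 and -0.53. The structural median moved to -0.15 and -0.40 in turn, while a median of 2 enzymes is the same as their mean. The spread within the structural class, from -0.73 to -0.005, covered both enzymes. As a mean deviation from each gene's own average over the arrays, the structural class was at 0.32 on vehicle replicate 7, 0.02 on vehicle replicate 9, -0.15 on clothianidin replicate 6 and -0.19 on clothianidin replicate 7. The lipid enzymes were at 0.36, -0.02, -0.12 and -0.22 on the same arrays. The classes stayed within 0.04 of each other on each of the 4 arrays, while the vehicle arrays of the structural class lay at 0.32 and 0.02. With Cnp, itself an enzyme by activity, left out of the structural class, its mean difference was -0.28. No test was made between classes, since genes of 1 array are not replicates and 2 enzymes are few.

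**Figure D2:**
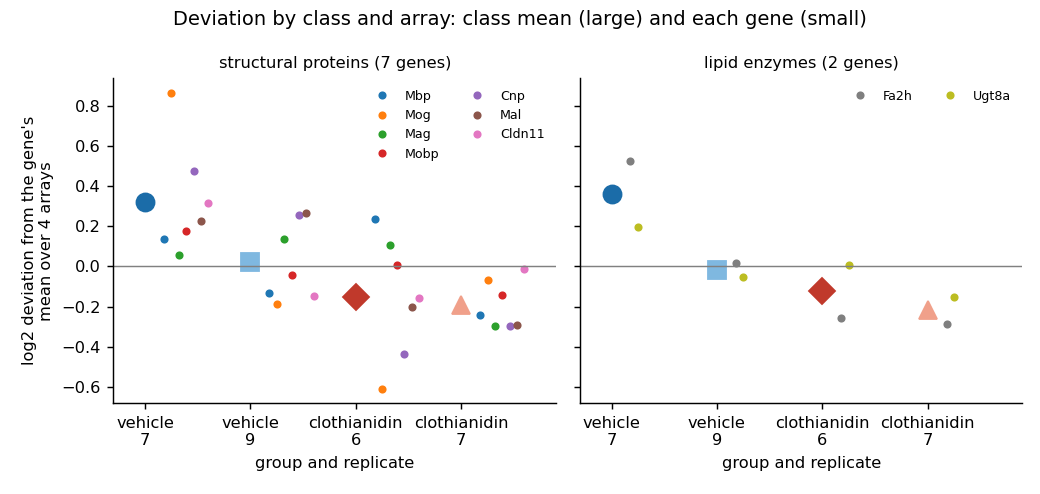
Log2 deviation of each gene from its own mean over the 4 arrays (small points, colour by gene) and the class mean (large symbols) for structural proteins and lipid enzymes. Both class means are highest on vehicle replicate 7, at 0.32 and 0.36, and lie below 0 on both clothianidin arrays.

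Vehicle replicate 7 carried much of the mean difference of -0.34 and less of the median of -0.19, and not for every gene. It was the highest of the 4 arrays for 6 of 9 members, Mog, Mobp, Cnp, Cldn11, Fa2h and Ugt8a, and for 28.3% of named genes. The median deviation of the members was 0.23 on that array, -0.04 on vehicle replicate 9, -0.16 on clothianidin replicate 6 and -0.24 on clothianidin replicate 7. Both clothianidin arrays lay under vehicle replicate 7 for 7 of 9 members (35.2% of named genes), and under vehicle replicate 9 for 4 of 9, Mag, Cnp, Mal and Fa2h (31% of named genes). With vehicle replicate 7 left out the mean difference over the members was -0.18 and the median -0.15, and 7 of 9 were lower (46.3% of named genes). With vehicle replicate 9 left out the mean was -0.50, the median -0.40, and 9 of 9 were lower. Without clothianidin replicate 6 the median was -0.39, again with 9 of 9 lower. Without clothianidin replicate 7 the mean was -0.32 and the median -0.24, with 7 of 9 lower (50.3% of named genes). Clothianidin replicate 7 was the lowest array for 6 of 9 members, a count not made over all named genes.

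The members differed in that comparison, as described after their values were seen. Cnp and Mal kept their size without vehicle replicate 7, at -0.62 and -0.52. Fa2h went from -0.54 to -0.29, with both clothianidin arrays still under vehicle replicate 9. Mog, Mobp, Ugt8a and Cldn11 lost most of their difference, at -0.15, -0.03, -0.02 and 0.06. Mog was at -1.20 when vehicle replicate 9 was left out in its place. Mbp, near 0 with all arrays, turned to 0.13 when vehicle replicate 7 was left out and to 0.24 when clothianidin replicate 7 was. Leaving out vehicle replicate 7 left Mag at -0.23, and its difference was 0.01 once clothianidin replicate 7 was dropped. Each such fit has 1 array in a group, taken to vary like the other group, and no member passed limma in any of them.

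**Figure D3:**
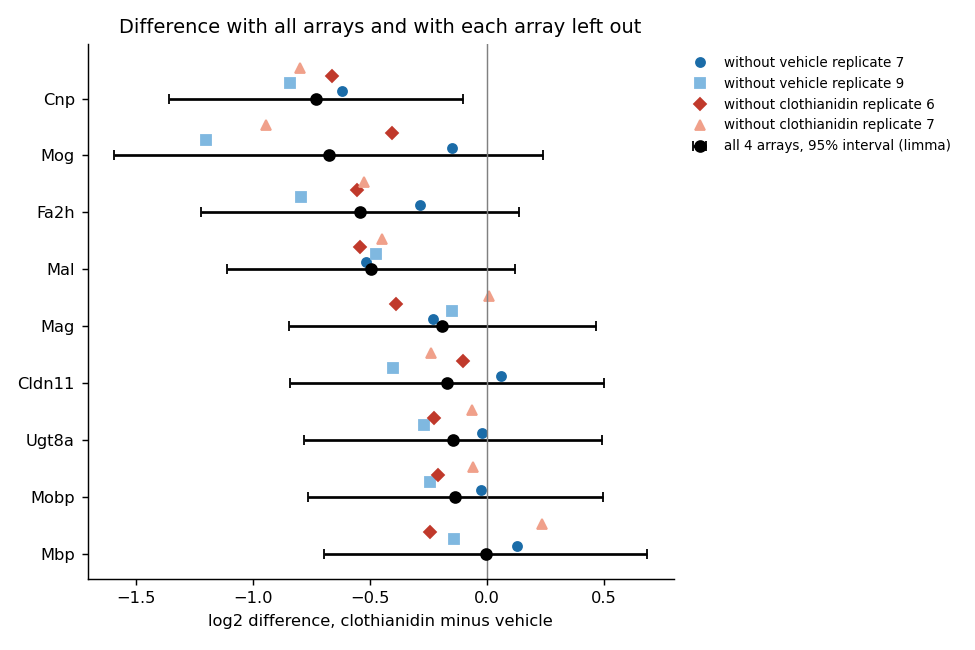
Log2 difference, clothianidin minus vehicle, for each member with all 4 arrays (black, with limma's 95% interval) and with each array left out (coloured symbols). Cnp and Mal stay between -0.84 and -0.45 whichever array is left out, while Mog runs from -1.20 to -0.15 and Mbp, Mag and Cldn11 cross 0.

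Promoters of 7 members were taken from the RefSeq promoter table (build GRCm38.p6). Mbp was not searched, and no promoter was found there for Fa2h. The 250 bases before the start site are printed for Cnp and Mal, whose groups lay apart, and for Mog and Mobp, whose groups overlapped. They are Cnp at chr11:100574689-100574938 (plus strand), Mal at chr2:127656696-127656945 (minus strand), Mog at chr17:37023399-37023648 (minus strand) and Mobp at chr9:120149492-120149741 (plus strand). Each is written 5′ to 3′ along its gene, with matches to motifs of MYRF, SOX factors or the TATA box on either strand in capitals.
Cnp: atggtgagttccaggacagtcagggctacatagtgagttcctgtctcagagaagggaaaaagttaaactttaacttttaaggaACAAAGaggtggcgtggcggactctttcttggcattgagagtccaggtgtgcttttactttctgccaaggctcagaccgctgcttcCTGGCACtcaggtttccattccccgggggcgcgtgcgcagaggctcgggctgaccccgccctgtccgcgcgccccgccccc
Mal: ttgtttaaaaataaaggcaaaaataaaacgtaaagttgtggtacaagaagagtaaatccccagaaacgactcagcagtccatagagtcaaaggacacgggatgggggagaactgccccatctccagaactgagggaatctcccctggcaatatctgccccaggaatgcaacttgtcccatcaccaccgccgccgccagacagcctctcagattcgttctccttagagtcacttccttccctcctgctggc
Mog: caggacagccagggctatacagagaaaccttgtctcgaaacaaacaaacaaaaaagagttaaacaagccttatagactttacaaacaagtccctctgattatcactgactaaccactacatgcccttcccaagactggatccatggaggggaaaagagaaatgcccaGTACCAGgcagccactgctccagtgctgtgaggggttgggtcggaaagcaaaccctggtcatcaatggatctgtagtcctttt
Mobp: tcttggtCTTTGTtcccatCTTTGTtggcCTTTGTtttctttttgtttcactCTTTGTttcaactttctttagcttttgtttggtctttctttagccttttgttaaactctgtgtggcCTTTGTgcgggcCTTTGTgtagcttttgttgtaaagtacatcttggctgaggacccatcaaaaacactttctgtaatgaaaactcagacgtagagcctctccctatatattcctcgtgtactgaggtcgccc
CTGGCAC and CTGGTAC are forms of the motif of MYRF, the regulator that switches on myelin genes, and ACAAAG and AACAAT are core letters of SOX factors such as SOX10. The TATA box was searched as TATAAA. Cnp held 1 CTGGCAC from 81 to 75 bases before the start, and 1 ACAAAG. Mog held 1 CTGGTAC on the opposite strand, from 83 to 77 bases before the start. Mobp held 6 copies of ACAAAG, all on the opposite strand, and Mal held no match. Of the 7 members taken, 2 held CTGGCAC (Cnp and Mag, at the first of 3 listed starts), where 4.19% of the 32841 promoters of the table did. Mog was the 1 of these 7 with CTGGTAC, found in 1.83% of all promoters. ACAAAG was in 3 of 7 and in 16.5% of all, AACAAT in 0 of 7 and in 9.43% of all, and the TATA letters in 0 of 7 and in 12.4% of all. The E-box CANNTG, not capitalised, was in 3 of the 7 (first starts) and in 66.2% of all promoters. No 2 capitalised motifs overlapped in these windows. Mal, Cldn11 and Ugt8a held none of the capitalised motifs, and Cnp, Mag and Mog each held a MYRF form.

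Other proteins of the oligodendrocyte membrane were also high on vehicle replicate 7, and their clothianidin arrays lay near vehicle replicate 9. Of 19 measured genes of this list, 12 were lower and 7 higher, with a median log2 difference of -0.10, and 0 passed limma. The list deviated by 0.28 on vehicle replicate 7, -0.14 on vehicle replicate 9, -0.12 on clothianidin replicate 6 and -0.06 on clothianidin replicate 7, and 12 of 19 genes were highest on vehicle replicate 7. Without that array the median was 0.08, without vehicle replicate 9 it was -0.20, and without clothianidin replicates 6 or 7 in turn it was -0.03 and -0.15. The log2 difference was -0.50 for the tetraspanin gene Cd82 and -0.49 for the glial connexin gene Gjc3, both without overlap between groups. Cntn2, a contactin gene of the axon-glia junction that neurons also use, went the other way at 0.73, also without overlap. So 2 lower and 1 higher of the 19 genes had groups apart. Over all named genes the groups lay apart for 3063 lower (15.7%) and 3015 higher. The brightest genes of the list, Gpm6b and Cd81, were at 0.05 and -0.10.

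The wider lipid pathways around Fa2h and Ugt8a were mixed in direction. Of 16 genes of sphingolipid and galactolipid synthesis 7 were lower and 9 higher, with a median of 0.02, which was 0.23 without vehicle replicate 7, 0.13 without clothianidin replicate 7, -0.13 without vehicle replicate 9 and -0.07 without clothianidin replicate 6. The 3 genes with the smallest p were Cers4, a ceramide synthase gene, at 0.22, and Sptlc1 and Sptlc3, subunit genes of serine palmitoyltransferase. Sptlc1 was at 0.27, while Sptlc3 lay at dim signal on every array, between 4.21 and 4.99, so no difference is given for it. The brightest genes were Degs1, a ceramide desaturase gene, at 0.20 and Cers6 at -0.05. Of 8 genes of galactolipid turnover 4 were lower and 4 higher, with a median of -0.01, which was 0.17 without vehicle replicate 7, 0.10 without clothianidin replicate 7, -0.19 without vehicle replicate 9 and -0.16 without clothianidin replicate 6. The ceramidase genes Acer3, Asah2 and Asah1 had -1.27, -0.42 and 0.30, and Psap, which encodes the saposin precursor, had 0.14. Acer3 had vehicle values of 10.96 and 10.48 and clothianidin values of 8.55 and 10.36, so clothianidin replicate 6 alone was far below.

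Of 17 genes of cholesterol synthesis 10 were lower and 7 higher, with a median of -0.12, and 12 of 17 were highest on vehicle replicate 7. Lss, the lanosterol synthase gene, had vehicle values of 10.05 and 9.84 and clothianidin values of 9.46 and 9.45, a log2 difference of -0.49 without overlap. Hmgcs1, which acts at the head of the pathway, had -0.36, Srebf2, its transcription factor, 0.34 and Sc5d 0.14. Without vehicle replicate 7 the median of this list was 0.02, and without vehicle replicate 9 it was -0.25. Of 15 genes of fatty acid and plasmalogen synthesis 6 were lower and 9 higher, with a median of 0.07, which ran from -0.005 without vehicle replicate 9 and 0.03 without clothianidin replicate 6 to 0.13 without clothianidin replicate 7 and 0.19 without vehicle replicate 7. Fasn, the fatty acid synthase gene, had vehicle values of 9.63 and 9.30 and clothianidin values of 10.68 and 10.05, a log2 difference of 0.90. Pex7, which encodes an import receptor of peroxisomes needed for plasmalogens, had 0.83. The elongase and desaturase genes Elovl6, Elovl5 and Fads2 had -0.47, -0.11 and -0.16. Over all 19505 named genes the groups lay apart for 3015 higher and 3063 lower (15.7%). In this list of 15 they did for 4 higher genes, Fasn and Pex7 among them, and for 1 lower, Elovl6. None of these genes passed limma (adjusted p = 0.997 for each).

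Transcription regulators of oligodendrocytes were mixed, with 8 of 14 lower and 6 higher and a median of -0.08. That median was 0.09 without vehicle replicate 7, -0.23 without vehicle replicate 9 and -0.19 without clothianidin replicate 6. Nkx6-2, a homeobox gene of myelinating oligodendrocytes, had vehicle values of 9.32 and 9.36 and clothianidin values of 8.65 and 8.77. Its log2 difference was -0.63 with groups apart, and -0.65 without vehicle replicate 7, the same layout of arrays as in Cnp and Mal. Nkx6-2 was named for its small p, which favours groups that lie apart. Of the 14 regulators, 1 lower and 1 higher had groups apart, and 0 passed limma. Among all named genes, 15.7% were lower with groups apart. Tcf7l2, a Wnt pathway factor of differentiating oligodendrocytes that thalamic and midbrain neurons also use, was at 11.70 on vehicle replicate 7 and at 9.69, 9.94 and 9.11 on the other arrays. As in Mog, vehicle replicate 7 stood above the rest and vehicle replicate 9 lay between the clothianidin arrays. Tmem98, a MYRF partner, had 0.56 with groups also apart, St18 -0.20 and Zfp536 0.56.

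Further mature oligodendrocyte markers had 17 of 27 lower and 10 higher, with a median of -0.07, and 16 of 27 were highest on vehicle replicate 7. The list deviated by 0.16 on that array and by -0.09, -0.05 and -0.01 on vehicle replicate 9 and clothianidin replicates 6 and 7, and its median was 0.09 without vehicle replicate 7, -0.21 without vehicle replicate 9 and -0.05 without clothianidin replicate 6. Gsn, the gelsolin gene, had -0.66, the carbonic anhydrase gene Car14 -0.33 and the protease gene Adamts4 0.49. The brightest, Apod and Ptgds, which encode lipid carriers also made by other brain cells, had 0.24 and 0.36. Precursor and premyelinating markers had 6 of 13 lower and 7 higher, with a median of 0.05 and a mean of -0.02, which differ in sign. The median was 0.23 without vehicle replicate 7, 0.21 without clothianidin replicate 7, -0.13 without vehicle replicate 9 and -0.15 without clothianidin replicate 6. Enpp6, a marker of newly forming oligodendrocytes, had vehicle values of 8.63 and 7.47 and clothianidin values of 7.40 and 6.69, a log2 difference of -1.01. Tnr, an extracellular matrix gene, had 0.60 and Cacng4 -0.09, while Tmem132d lay at dim signal on every array, between 2.94 and 3.89, so no difference is given for it.

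**Figure D4:**
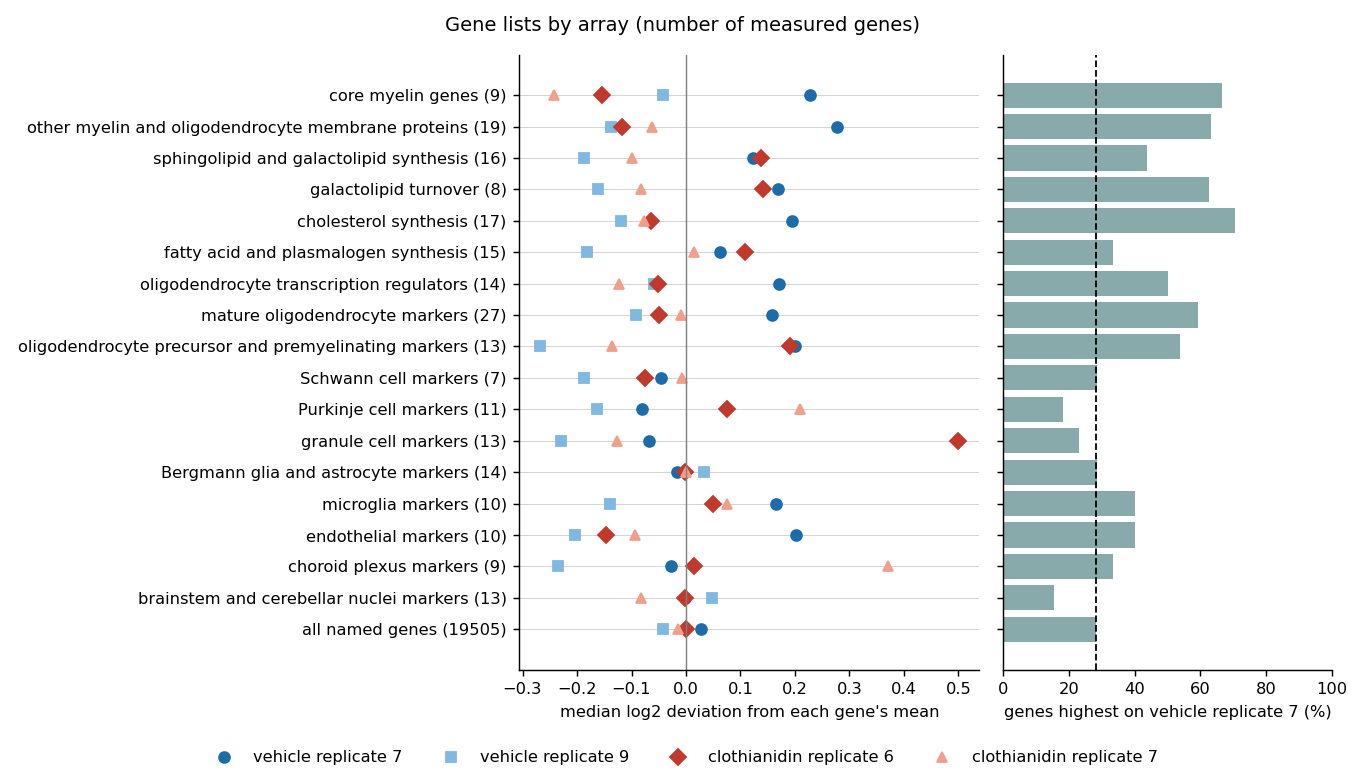
Left, median log2 deviation of each gene list from the genes' own means on each array; right, share of each list's genes that were highest on vehicle replicate 7, with the dashed line at the 28.3% of all named genes. The core myelin genes have 66.7% highest on that array and median deviations of -0.16 and -0.24 on clothianidin replicates 6 and 7.

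Markers of other cells in the dissection also differed between arrays, and their part in the myelin values was not tested. Purkinje markers had 8 of 11 higher and 3 lower, with a median of 0.16. Without clothianidin replicate 6 that median was 0.37, and without clothianidin replicate 7 it was 0.11. Their summed level, as log2 of the summed linear values, was 19.24 to 19.40 with vehicle and 19.54 to 19.78 with clothianidin. Granule cell markers had 10 of 13 higher and 3 lower, with a median of 0.27 and summed levels of 19.41 to 19.67 with vehicle and 19.51 to 19.95 with clothianidin. The granule cell median rested on clothianidin replicate 6, without which it was 0.05 with 6 of 13 lower, and it was 0.59 without clothianidin replicate 7. Bergmann glia and astrocyte markers had 8 of 14 higher with a median of 0.08, and summed levels of 19.07 to 19.27 and 19.12 to 19.16, and that median was 0.04 without clothianidin replicate 6 and -0.01 without clothianidin replicate 7. Endothelial markers had 6 of 10 lower with a median of -0.02, and summed levels of 13.36 to 13.86 and 13.43 to 13.86. That median was 0.19 without vehicle replicate 7, -0.22 without vehicle replicate 9, -0.14 without clothianidin replicate 6 and -0.19 without clothianidin replicate 7. Microglia markers had 7 of 10 lower with a median of -0.12, and summed levels of 10.88 to 11.21 and 11.02 to 11.24. The microglial direction turned without any of 3 arrays, to 0.09 without vehicle replicate 7, 0.04 without clothianidin replicate 6 and 0.02 without clothianidin replicate 7, and the median was -0.24 without vehicle replicate 9.

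The remaining lists marked the deep nuclei and brainstem, nerve roots and choroid plexus. Brainstem and cerebellar nuclei markers had 8 of 13 lower with a median of -0.09, summed levels of 13.21 to 13.43 and 13.17 to 13.31, and 8 of 13 at dim signal on every array. That median was -0.17 without vehicle replicate 7, -0.30 without clothianidin replicate 6 and -0.18 without clothianidin replicate 7. Schwann cell markers, which would mark myelin of nerve roots, had 3 of 7 lower with a median of 0.04, and 4 of 7 at dim signal on every array. That median was 0.21 without vehicle replicate 7, 0.09 without clothianidin replicate 6 and -0.06 without clothianidin replicate 7. Their summed level was 8.82 to 9.11 with vehicle and 8.83 to 9.03 with clothianidin. Choroid plexus markers had 6 of 9 higher with a median of 0.23, which was 0.03 without vehicle replicate 9, 0.11 without clothianidin replicate 7 and 0.57 without clothianidin replicate 6. Their summed level was 9.83 to 10.14 with vehicle, and 10.09 and 14.07 with clothianidin, where Ttr alone was at 6.38 and 13.96. With clothianidin replicate 7, the array with the high Ttr, left out, the members' mean difference was -0.32 and the median -0.24, with 7 of 9 lower (50.3% of named genes).

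The genes most like the members over the 4 arrays were Tmem127, Angel2, Epb41l5, Stim1, Prkaca, Selenoo, Cend1 and Zmat1. They were the 8 with the smallest root mean square distance from the members' median deviations, among 9495 named genes at or above the median level. Their distances were 0.054 to 0.059 and their log2 differences -0.31 to -0.25. None of the 8 belonged to any list used here, and 190 genes lay within a distance of 0.1. By the same measure Ugt8a and Mobp lay nearest the members' median, at 0.094 and 0.099, and Mog farthest, at 0.41.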

How the data were processed

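Total RNA of 4 cerebellum samples was hybridised to 1 Affymetrix array each, per the labels' protocols. The authors deposited log2 values to 2 decimals, and the submitters' processing notes name RMA. Its version, settings and log base are not given in the sources used here, and base 2 was assumed. No scanner files, scan dates or protein sequences were used, so detection is unknown, and the number of arrays limits the precision.

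Gene names came from the platform annotation (19572 of 22206 probe sets had 1 symbol, 0 several, 2634 were unnamed), and 0 changed through RefSeq (GRCm38.p6). A gene with several probe sets was represented by the brightest. Differences were fitted over all probe sets with limma 3.58.1 in R 4.3.3 (lmFit, eBayes, Benjamini-Hochberg at 0.05). The code was run on simulated data whose planted changes were all larger than the difference of any member. That run does not show whether differences of the members' size could be found. The prior (SD 0.306) had 5.96 degrees of freedom beside 2 residual ones.

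The members and the 16 other lists were chosen with earlier results of these data known, so lists are described by counts and medians. In each of 8 oligodendrocyte and lipid lists the 3 genes with the smallest p and the 2 brightest are named. The same rule covered 8 lists of other cell types, given mainly by counts here. All members are named, and likeness took the 8 nearest genes. Of the listed names, 1 matched through a synonym. Alternatives were scaling, level filters, variance models, probe set averaging, thresholds, the class of Cnp and leaving out each array.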

Additional observations from a re-analysis of the deposited data

How the results depend on the processing

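No paired analysis was possible because the groups share only 1 replicate number. Of 99 values of single members under the alternatives, 94 kept their direction and 0 passed limma. The other 5 reversed: Mbp was at 0.02 after median centring and at -0.245 to 0.235 with 1 array left out (0.13 without vehicle replicate 7), Mag at -0.39 to 0.01 (the latter without clothianidin replicate 7), and Cldn11 at -0.40 to 0.06 (the latter without vehicle replicate 7). Their causes were not tested. The level filters, variance models and probe set averaging could not turn a direction, since each member had 1 probe set and passed the filters. Only scaling and leaving out an array could move these values. With 1 array left out the median of the 9 members ran from -0.40 to -0.15, and that of the structural genes likewise from -0.40 to -0.15, while that of the 2 lipid enzymes ran from -0.53 without vehicle replicate 9 to -0.15 without vehicle replicate 7. For the members and the structural genes the larger sizes came without vehicle replicate 9 (-0.40) or clothianidin replicate 6 (-0.39). The members' median was -0.17 after median centring and -0.27 after quantile normalization, and the count lower was 8 and 9. The mean structural difference less the mean enzyme difference was 0.064 with Cnp left out and -0.04 to 0.04 with 1 array left out. Over all probe sets limma gave 0 calls, 0 to 1 with 1 array left out (the call came without clothianidin replicate 6), a linear model without moderation gave 8, an unadjusted limma p under 0.05 gave 940, and 1.5-fold with no overlap gave 1689. Of the 50 other named genes, 13 changed sign when some array was left out. Many of these genes were named for a small p, which favours a sign that holds, so the count does not measure stability. Vehicle replicate 7 was highest for 7 members after median centring and 6 after quantile normalization. With 2 arrays a group, no value here separates the treatment from the spread between samples.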

Other observations

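Olfactory receptor genes, which lie at dim signal in this tissue, had a lower clothianidin mean for 754 of 1091 genes. Their median log2 difference was -0.15, and that of the members -0.19. The olfactory median was -0.07 without vehicle replicate 9 and -0.10 without clothianidin replicate 6. Their median level was 4.09 and 4.24 with vehicle and 3.95 and 4.10 with clothianidin, so the groups overlapped only between vehicle replicate 7 and clothianidin replicate 7.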
